A study of Mus musculus with 6 samples.

Results

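The genes described here are 9 osteogenic genes: the transcription factors Runx1, Runx2, Runx3, Sp7, Dlx3 and Dlx5, the Runx partner Cbfb, and the mineralization genes Alpl and Phex. They were taken by gene name from a table of 55401 genes and measured by RNA-seq in C2C12 myotubes, which are multinucleate muscle cells formed from a mouse myoblast line in low serum. In 3 cultures an siRNA against SENP7, a protease that takes the small protein SUMO off other proteins, had been given for 3 days, and in the other 3 the control siRNA, which is GL2, against firefly luciferase. All cultures received 100 pmol of siRNA in medium with 2% horse serum, and no osteogenic agent is named in the labels. Both groups come from 1 immortalized cell line, the submitters call the 3 libraries of a group biological replicates, and the siRNA sequences are not known here. Gene coordinates are those of the table, on GRCm38.p6.

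Runx proteins bind DNA through a conserved runt domain, and core binding factor beta, the product of Cbfb, does not bind DNA itself but strengthens that binding. Runx2 is required for osteoblast formation, the zinc finger factor osterix (Sp7) acts after it, and the homeobox factors Dlx3 and Dlx5 are switched on by bone morphogenetic proteins (BMPs). C2C12 cells are a classic model here, because BMP2 diverts them from muscle to an osteoblast fate with alkaline phosphatase as its marker. Alkaline phosphatase, from Alpl, removes the mineralization inhibitor pyrophosphate, and Phex is a membrane peptidase of osteoblasts and osteocytes whose loss causes phosphate wasting.

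The start of 3 of these genes is shown because Runx factors regulate their own family through sites near their promoters, and because Runx3, Runx2 and Phex gave different results. Each window holds the 250 bases before a RefSeq gene start on GRCm38.p6, and capitals mark the Runx hexamer TGTGGT or its reverse complement ACCACA. The window of Runx3 lies at chr4:135120395-135120644 on the plus strand, that of Runx2 at chr17:44814628-44814877 on the minus strand and that of Phex at chrX:157415287-157415536 on the minus strand.
Runx3: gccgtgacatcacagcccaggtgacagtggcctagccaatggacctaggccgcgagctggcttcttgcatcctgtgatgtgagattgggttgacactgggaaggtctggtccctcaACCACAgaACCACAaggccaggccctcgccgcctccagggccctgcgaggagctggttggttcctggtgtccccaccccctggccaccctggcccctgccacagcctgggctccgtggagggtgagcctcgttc
Runx2: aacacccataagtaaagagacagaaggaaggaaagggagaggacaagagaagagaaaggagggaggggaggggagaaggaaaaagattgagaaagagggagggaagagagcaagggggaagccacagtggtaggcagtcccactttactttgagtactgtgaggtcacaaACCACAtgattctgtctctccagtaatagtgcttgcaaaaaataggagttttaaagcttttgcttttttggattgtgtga
Phex: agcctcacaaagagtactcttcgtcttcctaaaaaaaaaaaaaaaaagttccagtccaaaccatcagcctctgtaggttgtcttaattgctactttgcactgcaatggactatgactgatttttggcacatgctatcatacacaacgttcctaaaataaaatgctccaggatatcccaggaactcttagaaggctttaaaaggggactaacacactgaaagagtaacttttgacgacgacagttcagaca
The Runx3 window held 2 hexamers side by side, at -134 and -126 from the start, and the Runx2 window held 1, at -80. In the deposited coordinates Runx2 starts at 44814797 and Phex at 157415312, inside their windows. The Runx2 hexamer thus lies within the deposited span of Runx2. A hexamer stood in 14.0% of 32851 such windows, and 2 or more in 1.25%. The Phex window and the inner Runx3 start held none, nor did either start of Runx1, either start of Alpl or the start of Cbfb. A match is a run of letters, not evidence of binding, and the deposited counts add up all transcripts of a gene, so the starts of Runx1, Runx3 and Alpl were not measured separately.

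Values are normalized read counts, which the authors made by dividing each gene's reads by 1 factor per library, so that a value of 1 is about 1 read, and group values are means ± SD with n = 3 libraries each. The libraries held 25434880 to 30865945 reads with SENP7 siRNA and 25223218 to 27763538 with control siRNA. Senp7, the target, stood at 275, 279.2 and 346.7 with SENP7 siRNA, against 556.4, 616.4 and 648.8 with control siRNA. The first principal component (64.4% of the variance) put the SENP7 libraries at -32.53 to -27.68 and control replicates 1, 2 and 3 at 36.74, 33.35 and 19.13, so control replicate 3 stood apart from the other controls. Of 14668 tested genes 3062 passed the threshold, an adjusted p below 0.05 in limma, and values below rest on the same test with Benjamini-Hochberg adjustment over all of them.

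The cultures carried muscle transcripts, and several late bone genes had few or no reads. Not all bone genes were low, since Spp1, described below, averaged 8748 with SENP7 siRNA and 22610 with control siRNA. The 7 myotube markers summed to between 560000 and 640700 with SENP7 siRNA and between 517000 and 533400 with control siRNA, and 2 of them, Ckm and Mymk, rose. The bone matrix genes Ibsp and Mepe had no read in any library, the osteocalcin gene Bglap had 5 reads over the 3 SENP7 libraries and 4 over the 3 controls, and the osteocyte gene Sost had 8 with SENP7 siRNA and 4 with control siRNA. The 8 osteoblast and osteocyte markers together summed to 141.1 to 186.3 with SENP7 siRNA and 116.8 to 146.1 with control siRNA, mostly from Dmp1. Sp7 and Phex are among these 8, so the sum is not separate from their own results below. Phex averaged 45.24 with SENP7 siRNA and 17.9 with control siRNA. Dmp1 averaged 93.66 with SENP7 siRNA and 85.36 with control siRNA and did not pass. Of 6 chondrocyte markers only Sox9 averaged 10 or more, and their sum was 861.1 to 1027 with SENP7 siRNA and 1094 to 1426 with control siRNA. The blood cell markers summed to 42.79 to 54.12 with SENP7 siRNA and 38.3 to 58.97 with control siRNA, with Hbb-bs at 0, and the fat cell markers to 0 to 3.209 with SENP7 siRNA and 1.008 to 1.945 with control siRNA. The fibroblast markers, mostly Col3a1, summed to 128000 to 158100 with SENP7 siRNA and 83180 to 93470 with control siRNA. Dcn and Col3a1 rose, whereas Pdgfra averaged 253 with SENP7 siRNA and 280.5 with control siRNA and did not pass. The 4 myoblast or cycling markers summed to 4859 to 5769 with SENP7 siRNA and 4782 to 6507 with control siRNA. Pax7 rose, and Myf5, Mki67 and Top2a did not pass. The part of these marker levels in the results below was not tested. In bulk RNA, fewer cells of a type and less RNA per cell cannot be told apart.

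Of the 9 genes 8 were tested, having 10 or more normalized counts in 3 or more libraries, and Dlx5 had no read. Phex rose, Runx3 and Dlx3 fell, and Runx1, Runx2, Cbfb, Sp7 and Alpl did not pass the threshold. Among all tested genes 10.2% rose and 10.7% fell, or 20.9% in all, beside 3 of these 8. Sp7 and Alpl met the filter through the 3 control libraries and SENP7 replicate 3 alone, so the 8 are not all members and their count is a description. Groups did not overlap in 4 of the 8 (Runx3, Dlx3, Alpl and Phex), as in 39.6% of all tested genes. Their median log2 fold change was -0.27, against -0.0025 in all tested genes.

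**Figure D1:**
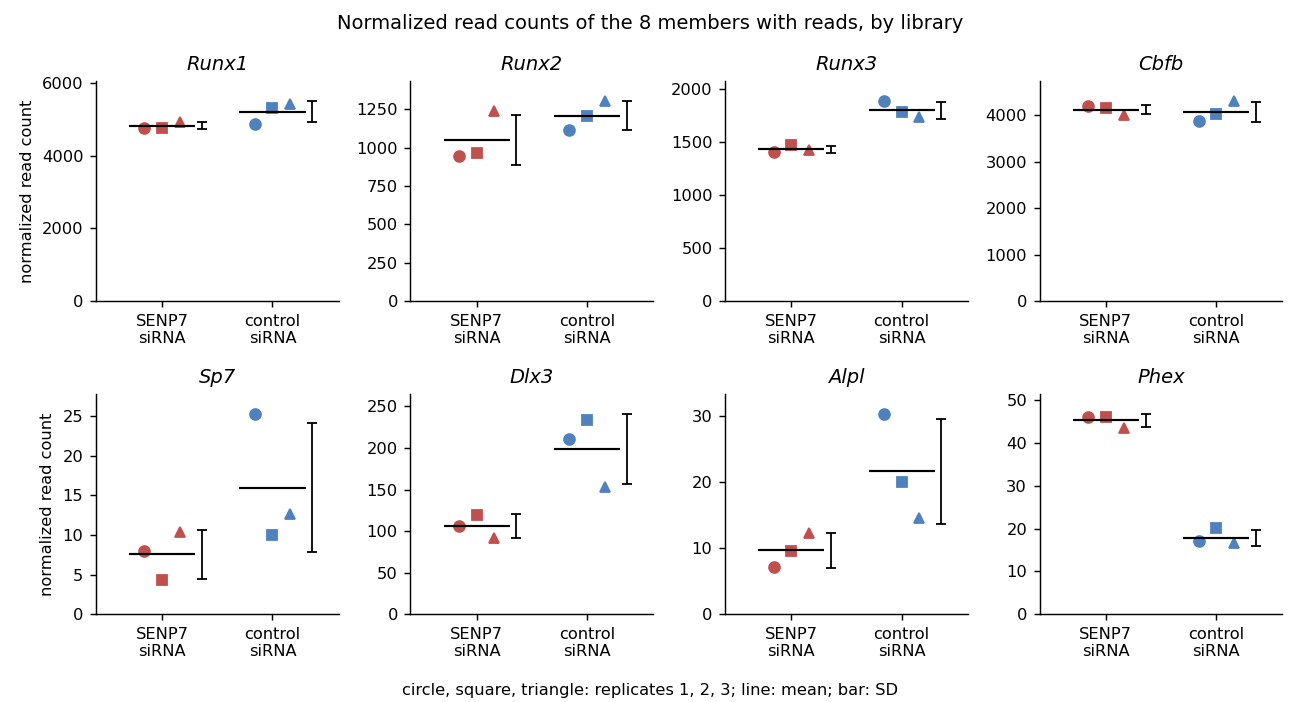
Normalized read counts of the 8 members with reads, with SENP7 siRNA libraries on the left (red) and control siRNA libraries on the right (blue) of each panel; symbols give replicates 1, 2 and 3, lines the mean and bars the SD (n = 3), and each axis starts at 0. Phex separates upward (43.58 to 46.14 with SENP7 siRNA against 16.54 to 20.03 with control siRNA), Runx3 and Dlx3 separate downward, and Cbfb and Runx1 overlap.

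Runx3, best known for proprioceptive neurons and T cells, was modestly but uniformly lower. Counts of Runx3 (ENSMUSG00000070691.10; chromosome 4, 135120652 to 135177990, plus strand) were 1404, 1470 and 1423 with SENP7 siRNA, against 1888, 1782 and 1733 with control siRNA. Every SENP7 library was below every control, and the SENP7 libraries differed among themselves by less than the controls did. The mean fell to 1432 ± 34.1 in SENP7 siRNA myotubes, against 1801 ± 78.9 in controls (SD, n = 3 each), 79.5% of the control level. On the log2 scale the change was -0.33 ± 0.06 (SE, limma adjusted p = 0.00488), and the call held in all 15 alternatives run (adjusted p of 0.000332 to 0.0346).

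Runx1 had the highest level of the Runx genes, both in counts and per kilobase of exon, and no change passed the test. Runx1 is required for blood stem cells and is induced in muscle fibres that lose their nerve. Counts of Runx1 (ENSMUSG00000022952.17; chromosome 16, 92601466 to 92826149, minus strand) were 4769, 4761 and 4932 with SENP7 siRNA and 4872, 5318 and 5425 with control siRNA. Control replicate 1 fell within the SENP7 range. The fitted log2 fold change was -0.11 with a 95% interval of -0.25 to 0.03 (limma adjusted p = 0.249), that is between 0.841 and 1.022 of the control level.

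Runx2, the osteoblast factor, split the SENP7 libraries. Counts of Runx2 (ENSMUSG00000039153.17; chromosome 17, 44495987 to 44814797, minus strand) were 946.7, 962.8 and 1241 with SENP7 siRNA and 1117, 1205 and 1304 with control siRNA. SENP7 replicates 1 and 2 were below every control, while SENP7 replicate 3 lay between control replicates 2 and 3. The log2 fold change was -0.21 with a 95% interval of -0.46 to 0.04 (limma adjusted p = 0.206), and without SENP7 replicate 3 it was -0.34 (limma adjusted p = 0.0333). Exons of Runx2os1 on the opposite strand cover 5.9% of the Runx2 exons. Runx2os1 had 25.68 to 36 counts with SENP7 siRNA and 26.26 to 34.27 with control siRNA.

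Cbfb, the shared partner, did not pass the test, with overlapping groups. Counts of Cbfb (ENSMUSG00000031885.14; chromosome 8, 105170674 to 105217989, plus strand) were 4203, 4148 and 4004 with SENP7 siRNA and 3874, 4019 and 4304 with control siRNA, and SENP7 replicates 1, 2 and 3 all lay within the control range. Its log2 fold change was 0.02 with a 95% interval of -0.12 to 0.16 (limma adjusted p = 0.851), or 0.922 to 1.115 of the control level. Its sign turned without control replicate 1 (-0.01).

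Per kilobase of exon, the 3 Runx transcripts together stood at 784.3, 798.6 and 834.9 with SENP7 siRNA, against 908.9, 934.8 and 945.2 with control siRNA. All SENP7 libraries were lower, with 806 ± 26.1 against 929.6 ± 18.7 in controls (exact two-sided permutation p = 0.1, the smallest that 3 against 3 allows). Runx1 made up 50.57%, 49.57% and 49.12% of this sum with SENP7 siRNA and 44.58%, 47.31% and 47.73% with control siRNA. The Runx3 share was 35.77%, 36.79% and 34.06% with SENP7 siRNA and 41.52%, 38.11% and 36.66% with control siRNA, and its groups overlapped (exact permutation p = 0.2). The Runx2 share averaged 14.71% with SENP7 siRNA and 14.7% with control siRNA. The ratio of Runx1 to Runx3 was 1.414, 1.347 and 1.442 with SENP7 siRNA, against 1.074, 1.241 and 1.302 with control siRNA, with no overlap (exact permutation p = 0.1). Cbfb over summed Runx was 1.54, 1.492 and 1.378 with SENP7 siRNA, against 1.225, 1.235 and 1.309 with control siRNA (exact permutation p = 0.1). Adjusted by Benjamini-Hochberg over the 7 measures of this kind, these permutation p-values of 0.1 became 0.175 and that of the Runx3 share 0.28. None could pass 0.05. The sum and both ratios all hold Runx3, so they are not independent of each other or of its fall. Counts add up all transcripts of a gene and were divided by 1 exon length per gene, so these are not ratios of molecules.

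**Figure D2:**
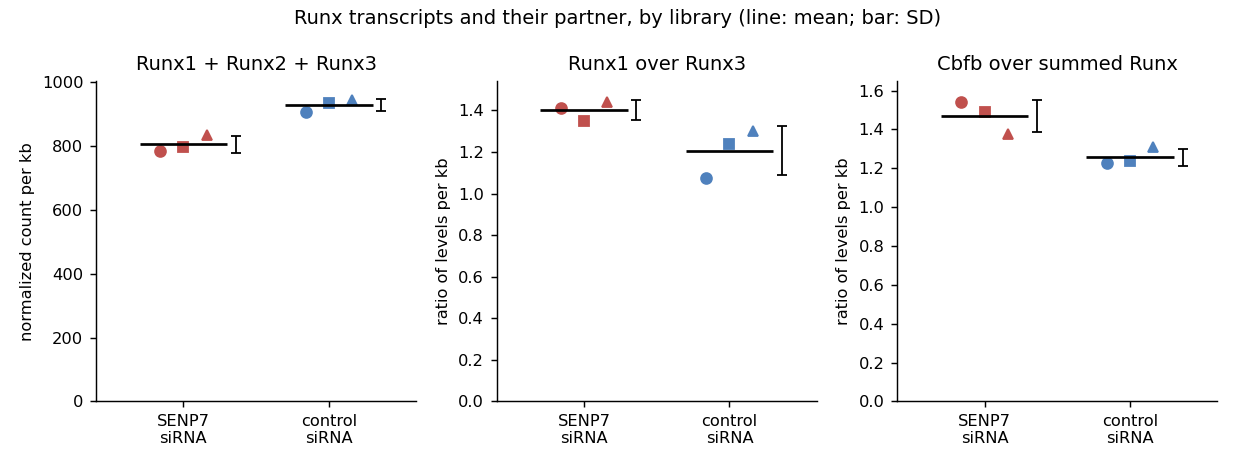
Summed Runx level, ratio of Runx1 to Runx3 and ratio of Cbfb to summed Runx, all per kilobase of exon, with SENP7 siRNA libraries left and control siRNA libraries right; symbols are replicates 1, 2 and 3, lines the mean and bars the SD (n = 3). The sum was lower in every SENP7 library (784.3 to 834.9 against 908.9 to 945.2 in controls) and both ratios were higher in every SENP7 library.

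Dlx3, a homeobox factor of bone, tooth and placenta, fell, to 53.3% of the control level. Counts of Dlx3 (ENSMUSG00000001510.8; chromosome 11, 95120119 to 95125296, plus strand) were 106.5, 119.8 and 91.89 with SENP7 siRNA, against 210.7, 233.6 and 152.7 with control siRNA. All SENP7 libraries were below all controls, although control replicate 3 lay well below control replicates 1 and 2. The mean fell to 106.1 ± 14 with SENP7 siRNA, against 199 ± 41.7 with control siRNA (SD, n = 3 each). This was a log2 fold change of -0.89 ± 0.18 (SE, limma adjusted p = 0.00825). It passed in all 15 alternatives (adjusted p of 0.000139 to 0.0462), with -1.07 without control replicate 3 and -0.76 without control replicate 2.

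Dlx4, which pairs with Dlx3 on chromosome 11 (95140447 to 95146263, minus strand), went the other way. It was at 29.28, 33.16 and 35.05 counts with SENP7 siRNA, against 13.1, 10.01 and 14.59 with control siRNA, and rose by 1.32 ± 0.24 on the log2 scale (SE, limma adjusted p = 0.00531). The log2 gap of Dlx4 minus Dlx3 was -1.83, -1.82 and -1.37 with SENP7 siRNA, against -3.91, -4.41 and -3.30 with control siRNA. The groups had to separate, because Dlx4 was higher and Dlx3 lower in every SENP7 library. The exact permutation p of 0.1, the smallest possible, therefore adds nothing to the 2 single results. The pair was set side by side after its values were seen. Dlx5, on chromosome 6 from 6877805 to 6882085 (minus strand, ENSMUSG00000029755.10), had 0 reads in all 6 libraries, which allows up to 3 reads in each. Its neighbour Dlx6 also had 0 reads, and Dlx1 and Dlx2 were low, at 14.59 to 33.26 and 19.89 to 46 counts over all libraries, and did not pass.

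Sp7, which encodes osterix, was near the floor of detection. Counts of Sp7 (ENSMUSG00000060284.7; chromosome 15, 102356606 to 102367182, minus strand) were 7.985, 4.279 and 10.42 with SENP7 siRNA and 25.2, 10.01 and 12.65 with control siRNA, from 24 reads with SENP7 siRNA and 47 with control siRNA. The groups overlapped, and control replicate 1 was far above the rest. The log2 fold change of -0.95 ± 0.43 (SE) missed the threshold (limma adjusted p = 0.149), was -0.59 without control replicate 1, and passed in none of 14 alternatives.

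Alpl, the tissue-nonspecific alkaline phosphatase gene, had few reads and lower values with SENP7 siRNA that missed the threshold. Counts of Alpl (ENSMUSG00000028766.10; chromosome 4, 137741733 to 137796384, minus strand) were 7.098, 9.628 and 12.31 with SENP7 siRNA and 30.24, 20.03 and 14.59 with control siRNA, from 30 reads with SENP7 siRNA and 63 with control siRNA. Every SENP7 library was below every control, by a narrow gap between SENP7 replicate 3 and control replicate 3. The log2 fold change was -1.05 ± 0.34 (SE, limma adjusted p = 0.0557). It passed in 4 of 14 alternatives, among them without control replicate 3 (limma adjusted p = 0.0146), under quantile normalization (0.0345) and without a filter on low genes (0.0431), with a range of 0.0146 to 0.175 over all of them.

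Phex, the membrane peptidase gene, rose. Counts of Phex (ENSMUSG00000057457.11; chromosome X, 157162075 to 157415312, minus strand) were 46.14, 46 and 43.58 with SENP7 siRNA, against 17.13, 20.03 and 16.54 with control siRNA. Both groups were tight and stood well apart. The mean was 45.24 ± 1.44 with SENP7 siRNA and 17.9 ± 1.87 with control siRNA, 2.53-fold higher, from 141 reads with SENP7 siRNA and 52 with control siRNA. The log2 fold change was 1.29 ± 0.19 (SE, limma adjusted p = 0.00219), and it passed in all 14 alternatives that tested it (adjusted p of 0.00049 to 0.0162). In the authors' deposited table the adjusted p was 0.00206 for Phex, 0.000271 for Dlx3, 0.000526 for Runx3 and 0.189 for Alpl. The authors' log2 fold changes were 0.86 for Phex, -0.76 for Dlx3, -0.32 for Runx3 and -0.51 for Alpl. All of these were smaller in size than the limma values given here, most of all for Phex and Alpl.

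**Figure D3:**
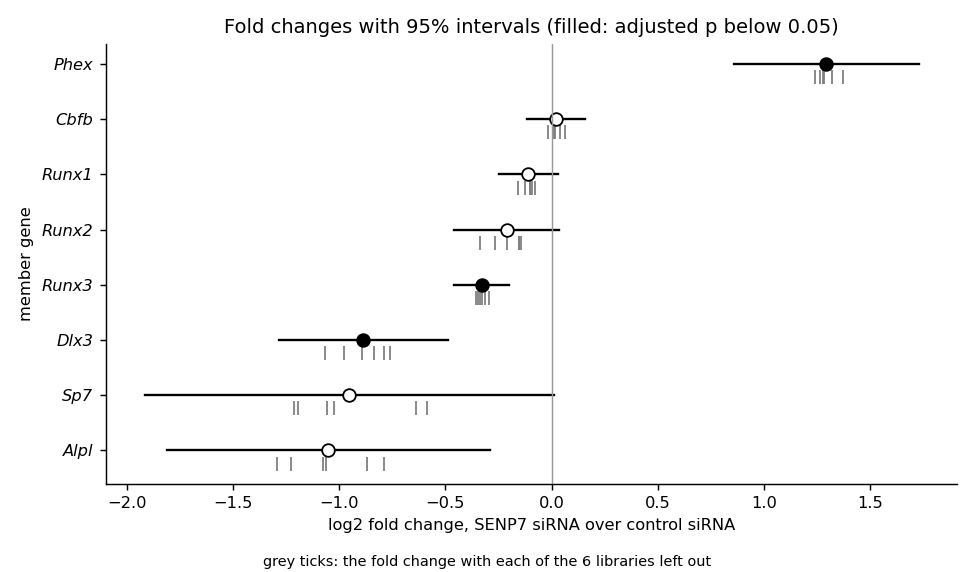
Change from SENP7 siRNA relative to control siRNA for the 8 tested members (x axis, log2 scale), with 95% intervals from limma; filled circles passed an adjusted p of 0.05 and grey ticks give the value with 1 library left out. Phex (1.29) lies alone on the right, Runx3 (-0.33) has a narrow interval below 0, and Sp7 and Alpl have the widest intervals.

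Set per kilobase of exon, the order of levels in control myotubes was Cbfb, Runx1, Runx3, Runx2, Dlx3, Alpl, Sp7 and Phex, with Dlx5 at 0. In SENP7 siRNA myotubes it was the same down to Dlx3, after which came Phex, Alpl and Sp7. Cbfb averaged 1183 ± 29.5 normalized counts per kilobase with SENP7 siRNA and 1168 ± 62.9 with control siRNA, above 92.5% of all tested genes with SENP7 siRNA and 92.1% with control siRNA. Runx1 averaged 400.9 ± 8.02 with SENP7 siRNA and 432.9 ± 24.4 in controls, and Runx3 286.3 ± 6.81 with SENP7 siRNA and 360 ± 15.8 in controls. Runx2 averaged 118.8 ± 18.7 with SENP7 siRNA and 136.8 ± 10.6 in controls, and Dlx3 40.68 ± 5.36 with SENP7 siRNA and 76.33 ± 16 in controls. Neighbours down to Dlx3 did not overlap in either group. Alpl, at 2.4 ± 0.647 with SENP7 siRNA and 5.36 ± 1.97 in controls, overlapped Sp7 in both groups. Sp7 was at 2.225 ± 0.91 with SENP7 siRNA and 4.695 ± 2.39 in controls. Phex was at 7.191 ± 0.229 with SENP7 siRNA, above both of these, and at 2.845 ± 0.297 with control siRNA, where it overlapped Sp7 alone. Of all tested genes 1.7% lay below Alpl in SENP7 siRNA myotubes and 6.4% in control myotubes.

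**Figure D4:**
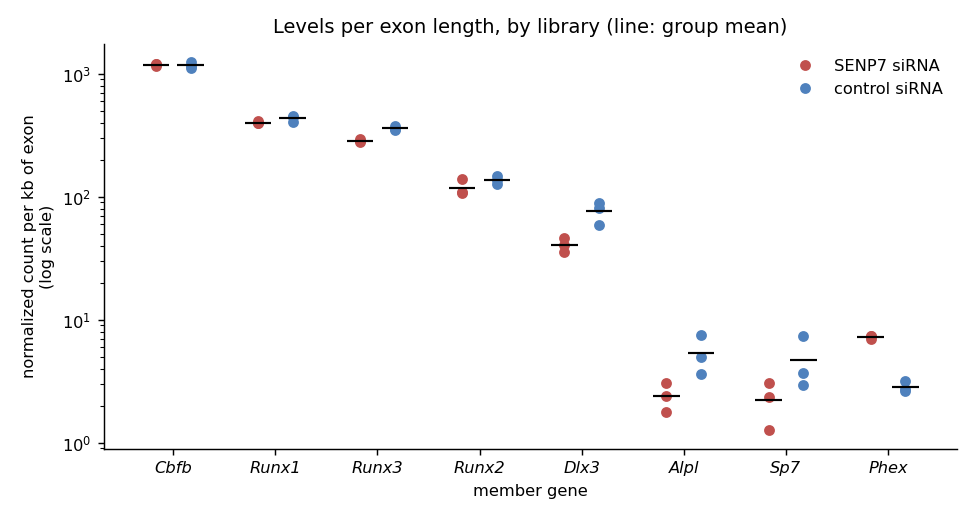
Normalized count per kilobase of exon on a log scale for the 8 members with reads, ordered by the control mean; SENP7 siRNA libraries (red) stand left of control siRNA libraries (blue), and lines are group means (n = 3). Cbfb and the Runx genes lie between 107.1 and 1237, and Alpl, Sp7 and Phex below 8.

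Genes with the most similar profile over the 6 libraries were found by Pearson's r on log2 values among the other genes with a mean of at least 50 (11282 for Runx3 and Dlx3, and 11283 for Phex). For Runx3 they were Sh3bgrl, Rps6ka4 and Bpgm (r of 0.999, 0.998 and 0.997), for Dlx3 Rnf181, Dffa and Zc3h14 (0.999, 0.998 and 0.997), and for Phex mt-Nd5, Nkiras1 and Adgrf3 (1.00, 0.999 and 0.999). These values are a description of 6 points in 2 groups, and the libraries share the difference between the groups.

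Runx partners and corepressors moved both ways. Of 33 tested genes 7 rose and 4 fell (21.2% and 12.1%), beside 10.2% and 10.7% of all tested genes. The median log2 fold change of the list was 0.04. Among the Groucho-type corepressors Tle1 rose to 810 ± 18.8 with SENP7 siRNA, against 563.5 ± 32.7 in controls, and Tle4 to 206.9 ± 18 against 145.6 ± 4.97 in controls, whereas Tle3 fell to 2475 ± 37 against 3177 ± 176 in controls. Runx1t1, known as ETO from its fusion to RUNX1 in human leukaemia, rose to 21.32 ± 7.12 against 5.237 ± 2.21 in controls (log2 fold change 1.84), and met the filter on low values through the SENP7 libraries alone. The coactivator gene Crebbp rose by 0.35 and the TGF-beta effector gene Smad3 by 0.34 on the log2 scale. Tle4 lost its call without SENP7 replicate 1 (limma adjusted p = 0.0671, range 0.00731 to 0.0671) and Smad3 without control replicate 2 (0.0525, range 0.00102 to 0.0525). The rising genes were 3 to 10 and the falling ones 1 to 4 when 1 library was left out. Rises were 3 without SENP7 replicate 1, and 4 without SENP7 replicates 2 or 3 or control replicate 2. In each of those 4 settings 1 gene fell.

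Of 36 other skeletal transcription factors 5 rose and 9 fell (13.9% and 25%), beside 10.2% and 10.7% of all tested genes. Their median was 0.03. Osr2, a palate and joint factor, had 70 reads over the 3 SENP7 libraries and 11 over the 3 controls (log2 fold change 2.30) and met the filter through the SENP7 libraries alone. Dlx4 is described above. The AP-1 gene Fosl1, needed for normal bone matrix, fell to 128 ± 21.8 with SENP7 siRNA against 318.8 ± 52 in controls, and Sox11 to 4283 ± 493 against 6275 ± 291 in controls. The Wnt effector Tcf7 fell by 0.44 on the log2 scale, and Foxc2 by 0.76, a call lost without control replicate 2 (limma adjusted p = 0.055, range 0.000747 to 0.055). With 1 library left out 1 to 5 rose and 4 to 9 fell. Rises were 1 without SENP7 replicate 2 and 2 without SENP7 replicates 1 or 3 or control replicates 1 or 2. Falls were 4 without SENP7 replicates 1 or 2 and 5 without control replicate 2.

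Bone matrix and mineralization genes fell more often than they rose, with 8 falls and 3 rises among 32 tested (25% and 9.4%) and a median of -0.05. Over all tested genes 10.7% fell and 10.2% rose, so the rising share was near that of all genes. Ank, which exports pyrophosphate or its precursor, fell to 8713 ± 788 with SENP7 siRNA against 13790 ± 709 in controls. The phosphate importer gene Slc20a1 fell to 3827 ± 330 against 5511 ± 300 in controls, and Nt5e, which makes adenosine from AMP, to 56.66 ± 28.2 against 172.9 ± 19.2 in controls. Spp1, the mineral-binding protein osteopontin, fell to 8748 ± 1510 against 22610 ± 5190 in controls, and the collagen cross-linking enzyme gene Lox to 13580 ± 155 against 23040 ± 4470 in controls. Ogn, the small proteoglycan osteoglycin, rose to 23010 ± 1970 with SENP7 siRNA against 11680 ± 601 in controls. These 6 genes passed in all 15 alternatives. With 1 library left out the rises were 2 or 3 and the falls 5 to 11. Rises were 2 in every such setting except without control replicate 3, where 3 rose. Falls were 5 without SENP7 replicates 1 or 2 or control replicate 1.

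BMP signalling genes also split, with 8 rises and 6 falls among 35 tested (22.9% and 17.1%) and a median of 0.04. The shares over all tested genes were 10.2% and 10.7%. The BMP-family ligand genes Gdf5 and Gdf6 fell, Gdf5 to 316.2 ± 22.8 with SENP7 siRNA against 799.4 ± 79 in controls and Gdf6 to 20.8 ± 5.94 against 208.8 ± 44.1 in controls. Bmp6 had 143 reads over the SENP7 libraries and 16 over the controls, a log2 fold change of 3.13, or 2.47 without control replicate 2. It met the filter on low values through the SENP7 libraries alone, so its groups had to differ. The co-receptor genes Rgma (0.91) and Rgmb (0.68) rose on the log2 scale. The calls of Gdf5, Gdf6, Rgma and Rgmb held in all 15 alternatives. With 1 library left out 5 to 11 rose and 5 to 7 fell. The rises were 5 without SENP7 replicates 2 or 3 or control replicate 2, and 11 without control replicate 3.

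Of 22 chondrocyte genes only 8 had enough reads, of which 1 rose and 2 fell (12.5% and 25%), with a median of 0.04. Beside these stood 10.2% and 10.7% of all tested genes. Col10a1, the hypertrophic cartilage collagen gene that Runx2 activates in growth plates, fell to 12.82 ± 2.03 with SENP7 siRNA against 117.1 ± 18.5 in controls. Sox9 fell by 0.44 and Col11a2 rose by 0.45 on the log2 scale. The Sox9 call was lost without SENP7 replicates 2 or 3 or control replicates 1 or 2 (limma adjusted p of 0.0699, 0.0712, 0.0568 and 0.0884, range 0.000357 to 0.0884). The Col11a2 call was lost without SENP7 replicates 1, 2 or 3 or control replicate 1 (0.0941, 0.0599, 0.0911 and 0.0593, range 0.0131 to 0.0941). With 1 library left out 0 to 3 genes rose and 1 to 3 fell. Rises were 0 without SENP7 replicates 1 or 2 or control replicate 1, and 3 without control replicate 3. Falls were 1 without SENP7 replicates 2 or 3 or control replicates 1 or 2.

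**Figure D5:**
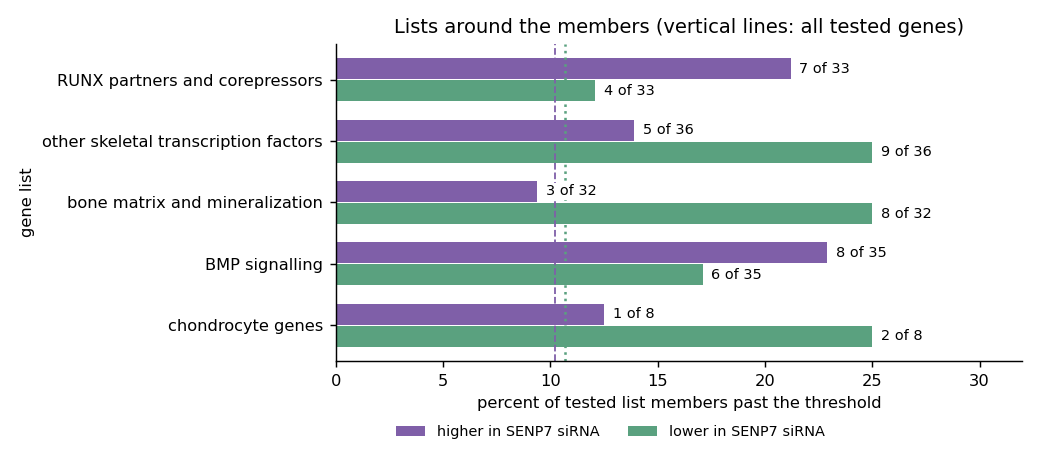
Percent of the tested members of 5 gene lists that were higher (purple) or lower (green) with SENP7 siRNA at an adjusted p below 0.05, with counts beside the bars; the vertical lines are the shares over all 14668 tested genes, 10.2% higher (dashed) and 10.7% lower (dotted). The skeletal factor, bone matrix and chondrocyte lists have 25% lower (2 of 8 in the last), and the Runx partner and BMP lists have over 20% higher. The higher shares count Runx1t1 (Runx partners), Bmp6 (BMP) and Osr2 (skeletal factors). These met the filter through the SENP7 libraries alone, so their groups had to differ.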

How the data were processed

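Polyadenylated RNA of 6 libraries, 3 per group, was sequenced in paired reads with a directional kit, per the labels' protocols. The authors trimmed reads with Trim Galore 0.6.4 and used STAR 2.6.1d, featureCounts 1.6.4, bcl2fastq and DESeq2 with build GRCm38.p6, per the submitters' processing notes. The strand setting of the counting is unknown here. The deposited table holds a normalized signal per library, the read count divided by 1 factor, which from the values was made by the authors. It also holds the authors' log2 fold change with its error, a Wald score and p-values, per the file headers. All positive values were whole multiples of 1 step per library within 0.1 read, so reads were recovered; in control replicate 1 the step (1.007923) is near 1.

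Normalized values were tested with limma 3.58.1 (R 4.3.3, trend, robust) on log2(normalized count + 1), group as sole term, a scale on which changes of low genes look smaller. Tests are two-sided. Alternatives tried were edgeR 4.0.16 and DESeq2 1.42.0 on recovered reads, TMM and quantile scaling, other filters (none, and 50) and pseudocounts (0.5 and 5), each library left out, and a replicate block. The procedures were tested on simulated data. Members, lists and tests were chosen with earlier results of these data known. Named genes are all members and, of each of 5 lists, up to 6 genes with the smallest adjusted p; 1 gene so chosen is not reported here. Exon lengths are those of the table, and overlaps are from GENCODE M21. Promoters matched 6 of 9 members by symbol.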

Additional observations from a re-analysis of the deposited data

How the results depend on the processing

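The directions of 7 of the 8 tested members held in every alternative that tested them. The exception was Cbfb, at 0.02 on the log2 scale, which lay between -0.0145 and 0.0614 with 1 library left out and was negative without control replicate 1. With a filter at a normalized count of 50, 0 members rose, since Phex was no longer tested. With the replicate number as a block, 4 members fell in place of 2 (Runx2 with adjusted p = 0.035 and Alpl with 0.0485 in limma) and 4175 genes were called in place of 3062. Deviations from the group means correlated at 0.13, 0.062 and 0.251 in the 3 pairs of equal replicate numbers, and at -0.22 to 0.141 in pairs of unequal numbers. SENP7 replicates 1 and 3 deviated most like the control of the same number. SENP7 replicate 2 deviated most like control replicate 1 (correlation 0.141), not like control replicate 2. Whether the numbers pair the samples cannot be told from these values, and the fit reported did not pair them. With 1 library left out, between 1504 and 4657 genes were called, with 1504 without SENP7 replicate 2, 1554 without SENP7 replicate 1, 1610 without control replicate 2 and 4657 without control replicate 3. The members that fell were then 2 or 3 and the members that rose 1. Of the 53 list genes past the threshold, 26 passed in every alternative that tested them and none reversed. Of these, Bmp6, Osr2 and Runx1t1 were tested in 11 of 15, and not where an SENP7 library was left out or with the filter at 50. The lists differed by at most 1 call in each direction between limma and edgeR or DESeq2. Where 1 and 2 chondrocyte genes rose and fell in the fit reported, 2 rose with edgeR, DESeq2, TMM scaling or a pseudocount of 5, and 3 rose without a filter or with the block. With the filter at 50, 2 skeletal factors rose in place of 5. With the block, 5 bone matrix genes rose in place of 3, and without a filter or with edgeR or DESeq2 2 did. In place of 8 bone matrix genes, 7 fell with edgeR, DESeq2, TMM scaling, a pseudocount of 0.5 or no filter. With quantile normalization or the filter at 50, 6 of them fell, and with the block 9. At 24 to 63 reads per group, depth limits what can be said of Sp7 and Alpl. The size of the Phex rise is limited likewise, with 52 reads over the controls.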

Other observations

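Relatives of the mineralization genes were close to the floor. Alpi, an intestinal alkaline phosphatase gene, had 26 reads over the 3 SENP7 siRNA libraries and 12 over the 3 control libraries, and Akp3, another intestinal form, had 15 with SENP7 siRNA and 3 with control siRNA. Alppl2 had 0 in both. Bglap3, of the osteocalcin cluster, had 31 reads with SENP7 siRNA and 8 with control siRNA, while its neighbour Bglap2 had 47 with SENP7 siRNA and 30 with control siRNA and did not pass (log2 fold change 0.55, limma adjusted p = 0.441). None of Alpi, Akp3, Alppl2 and Bglap3 met the filter for testing, and how the authors' counting split reads among the near-identical Bglap copies is unknown here. Fgf23, the phosphate hormone that rises when Phex is lost, had 0 reads in every library. These genes were chosen after their values were seen.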
